A study of Mus musculus with 10 samples.

Results

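The 76 genes described here are named for proteins of the mitochondrial ribosome, and were taken as every row of the right atrial gene table whose symbol begins with Mrpl or Mrps followed by a number, 76 of 23337 genes. They comprised 47 Mrpl rows and 29 Mrps rows, spread over 17 chromosomes. All 76 were found in GENCODE M21. RNA-seq libraries came from the right atria of 10 mice, 4 labelled control (M1, M2, F1 and F2) and 6 labelled Tbx5 mutant (F1 to F3 and M1 to M3). Tbx5 is a T-box transcription factor of the heart, and the series set out to find which genes change in the adult atrium when it is removed. A Cre recombinase switched on by tamoxifen and driven by the R26 promoter, which is active in nearly all cells, was used to cut out exon 3 of Tbx5. The study describes its mutants as Tbx5 fl/fl;R26CreERt2 and its controls as R26CreERt2, whereas the labels of these libraries give the genotype of the controls only as Control. The labels give the same treatment for all mice, 0.167 mg of tamoxifen a day for 3 days by intraperitoneal injection with tissue taken 1 week later, a mixed strain and an age of 8 to 10 weeks, whereas the extraction protocol gives 6 to 8 weeks. Because the promoter is ubiquitous, the deletion was not restricted to heart muscle cells.

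Mitochondria translate their own small genome with a dedicated ribosome, which has a large subunit that forms peptide bonds and a small subunit that reads the messenger RNA. Its RNAs are made inside the organelle, but its proteins are encoded in the nucleus, made in the cytosol and imported. Some are counterparts of bacterial ribosomal proteins, and others were gained by mitochondria. The ribosome's products are core subunits of the respiratory chain and the ATP synthase, on which heart muscle depends for contraction, and inherited defects of several of these proteins, MRPL3, MRPL44 and MRPS22 among them, are known from patients with cardiomyopathy.

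The libraries held 5703775 to 7095141 counts. Levels are given as CPM, counts scaled to a common library size after TMM, a normalization that takes most genes as unchanged. Tbx5 itself had more reads in the mice labelled mutant, with 215, 198, 224 and 184 CPM in control M1, M2, F1 and F2 and 275 to 475 CPM with a median of 417 in the mutants (log2 fold change 0.94 ± 0.15, adjusted p = 0.000495, edgeR). This count covers the whole gene and not exon 3 alone, so it does not check the deletion. All directions below are therefore relative to the labels, and "controls" and "mutants" mean the mice so labelled. In the 4 controls the female and male labels also went against Xist and Ddx3y counts. One library, mutant M3, gave 38.9% of its counts to Rn45s, the ribosomal RNA precursor, against 0.268 to 1.49% in the other libraries. The defining transcripts of atrial heart muscle were present throughout, and the summed level of the cardiomyocyte markers was 136671 to 189108 CPM in the controls and 83329 to 156520 CPM in the mutants, while fibroblast markers were at 3650 to 4845 and 6752 to 9748 CPM and leukocyte markers at 164 to 235 and 276 to 375 CPM. The markers within a list did not all move one way. Of 8 cardiomyocyte markers, Tnnt2 and Actc1 rose while Ryr2, Myl7 and Nppa fell, and of 6 fibroblast markers 4 rose and Pdgfra fell. Ttn was the largest part of the cardiomyocyte sum, with means of 82383 CPM in the controls and 51937 CPM in the mutants. The mean sums were 156266 and 116632 CPM. Ttn did not pass the test (log2 fold change -0.67, adjusted p = 0.146, edgeR). Its transcript is 106824 bases long, and in the length-adjusted fit described below its log2 fold change was -0.04 (adjusted p = 0.913). Tnnt2, Actc1, Ryr2, Myl7 and Nppa passed in that fit too, in the same directions. Ryr2, the calcium release channel of heart muscle, was at 5328 ± 564 CPM (SD, n = 4) in the controls and 1701 ± 469 CPM (n = 6) in the mutants (log2 fold change -1.65 ± 0.19, SE, adjusted p = 2.99e-05, edgeR). Ventricular markers were at 189 to 294 and 785 to 1586 CPM. Of these, Myl3 rose from a mean of 45.4 CPM in the controls to 688 CPM in the mutants, and Myl2 from 4.53 to 19.4 CPM. Myh7 did not pass (adjusted p = 0.208, edgeR), and Irx4 had at most 1 count in a library. In bulk tissue, fewer cells of a type and less RNA per cell cannot be told apart, and the part these marker levels have in the results below was not tested.

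As a group the mitoribosomal protein genes were modestly higher in the mutants. Of the 76 genes, 74 passed edgeR's expression filter, and 33 of these rose and 1, Mrps6, fell at an adjusted p under 0.05 (quasi-likelihood test, Benjamini-Hochberg over 13084 genes), whereas 40 did not pass. Over all genes tested, 16.3% rose and 15.0% fell. The fold changes were small, and a gene that did not pass is not shown to be unchanged. The median log2 fold change of the 74 genes was 0.33, against -0.00495 over all genes, and 72 of 74 values were above 0. When a fold over 1.5 and a mean normalized signal over 1 in the controls were also required, 6 genes were higher and 1 was lower, and the share over all genes was 8.5% higher and 7.16% lower. The mice of the 2 groups did not overlap for 21 genes that were higher and 1 that was lower, compared with 11.7% and 11.0% of all genes. The count of 33 was 18 without control M1 and 21 without control F1. In these fits 1786 of 13184 and 1631 of 13227 genes of the whole table were higher.

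**Figure D1:**
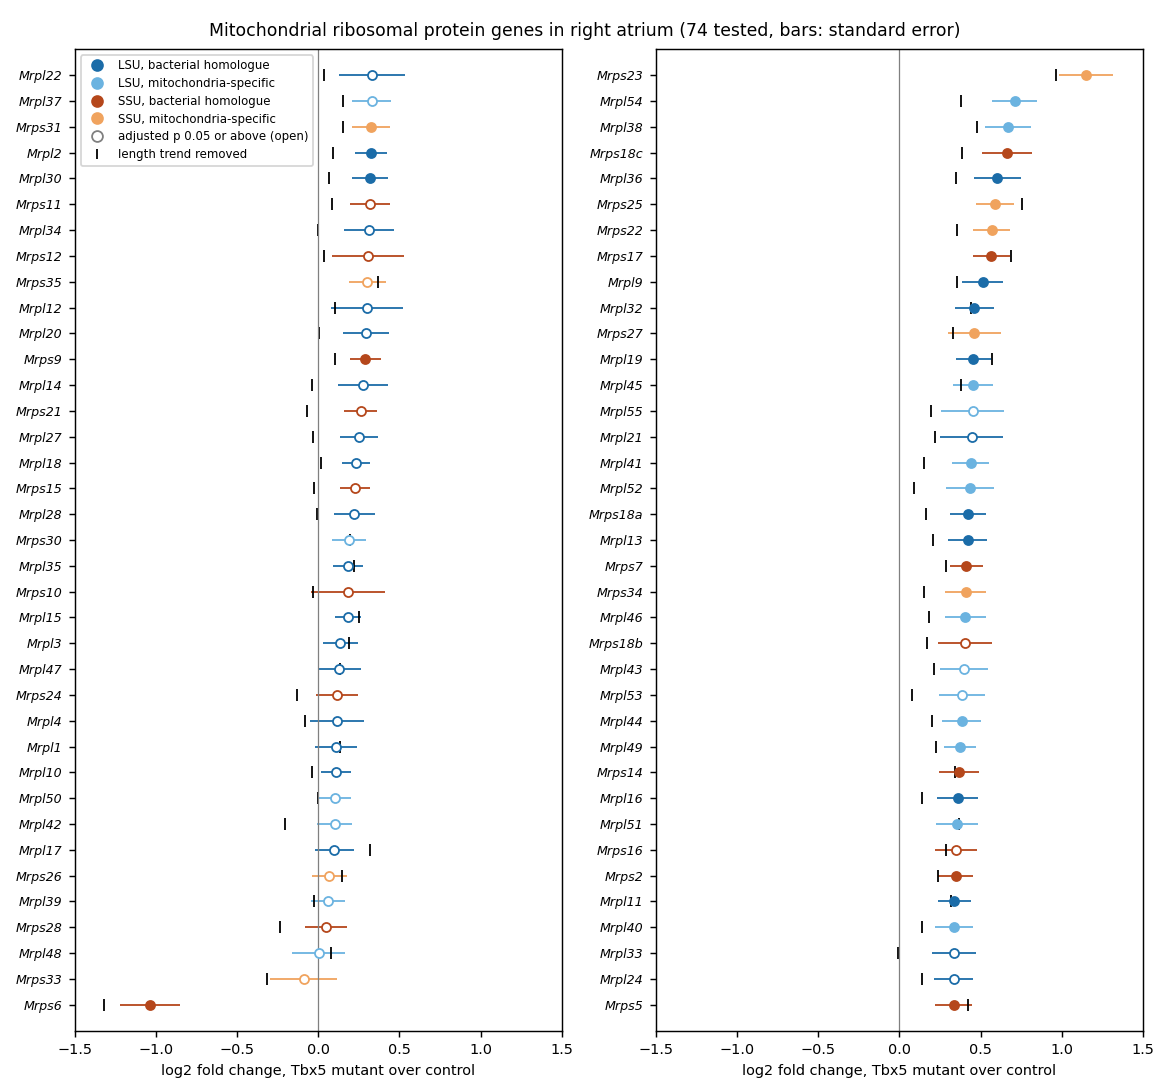
Log2 fold change of the mice labelled Tbx5 mutant over the mice labelled control for the 74 tested genes, as circles with the standard error, coloured by subunit and by whether the protein has a bacterial homologue (LSU, large subunit, and SSU, small subunit). Filled circles passed an adjusted p of 0.05 and black ticks give the value after each library's trend on transcript length was removed. Mrps23 lies at 1.15 and Mrps6 at -1.04, with the other genes between -0.09 and 0.71.

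Transcript length moved with this result. Shorter transcripts were relatively more abundant in the mutants across the whole table, with a Spearman rho between log2 fold change and transcript length of -0.33 over 12951 genes, which are not independent replicates. The mitoribosomal genes are short, with a median of 1302 bases against 3200 for all tested genes. When the trend of each library on length was removed, 18 of the 74 genes were higher and 1 was lower, against 14.8% and 12.8% of all genes, and the median fell to 0.15 with 57 of 74 values above 0. In that fit 3 genes were higher and 1 lower past the fold of 1.5, against 7.81% and 6.4% of all genes. Of the genes called, 17 were called in both fits in the same direction and 2, Mrpl15 and Mrps35, only once the trend was removed. Within the 74 genes, log2 fold change was nearly unrelated to length (rho -0.06), GC content (rho 0.12) or mean level (rho -0.15). Whether the length trend is a property of the libraries or of the tissue was not tested.

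**Figure D2:**
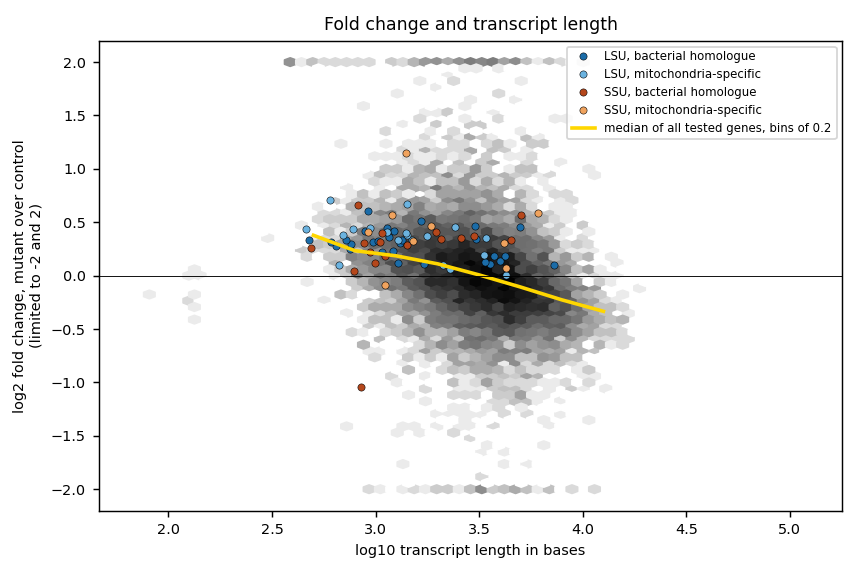
Log2 fold change of the mice labelled Tbx5 mutant over control against log10 transcript length in bases, with all genes in grey (darker cells hold more genes, values limited to -2 and 2) and the 74 tested mitoribosomal genes in colour. The line joins the medians of all genes in length bins holding at least 100 genes, which fall from 0.38 in the bin of the shortest to -0.33 in the bin of the longest transcripts.

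The length trend and the level of these genes largely moved together over the mice. The median log2 deviation of the 74 genes from their mean over all libraries was -0.34, -0.19, -0.21 and -0.01 in control M1, M2, F1 and F2, and the length trend of those libraries, as the rho between a gene's deviation and its length, was 0.34, 0.27, 0.26 and 0.13. In mutant F1, F2, F3, M1, M2 and M3 the deviations were 0.01, 0.10, 0.10, 0.03, 0.23 and 0.32 and the trends 0.01, -0.20, -0.16, 0.04, -0.35 and -0.38. Control M1 had the lowest level and the strongest trend towards long transcripts, and mutant M3, the library rich in Rn45s, had the highest level and the strongest trend towards short ones. Control F2 lay next to mutants F1 and M1 in both. Summed over the 76 genes, the level was 2339 ± 220 CPM (SD, n = 4) in the controls, from 2065 to 2603, and 2919 ± 252 CPM (n = 6) in the mutants, from 2677 to 3351, so that the groups did not overlap. The Mrpl rows summed to 1577 ± 161 and 1939 ± 167 CPM and the Mrps rows to 762 ± 61.6 and 980.0 ± 88.8 CPM. These sums are descriptions, without a test.

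**Figure D3:**
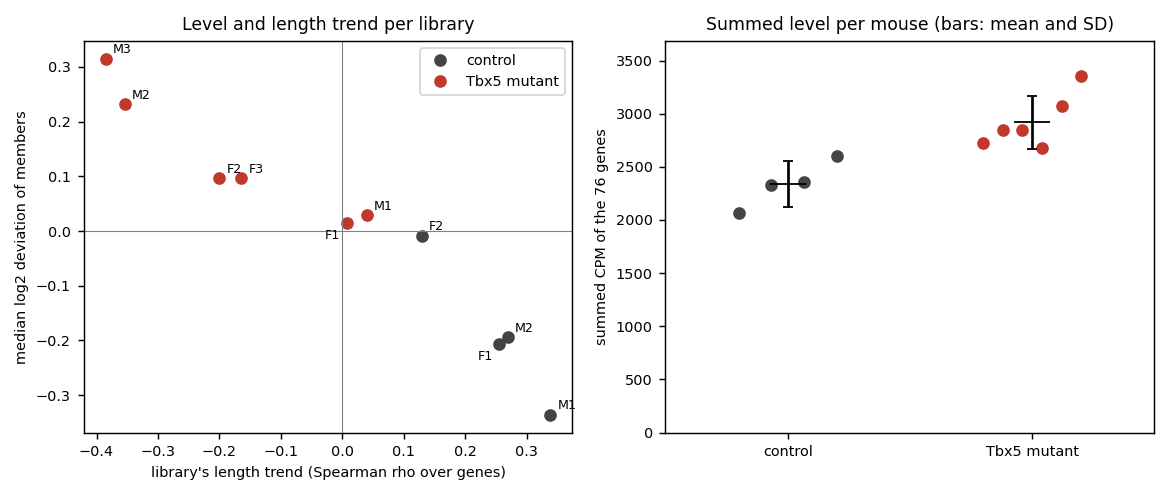
Left, the median log2 deviation of the 74 tested genes in each library against that library's length trend (Spearman rho over genes between deviation and transcript length). Right, the summed CPM of the 76 genes per mouse with mean and SD, from 2065 to 2603 in the 4 mice labelled control and from 2677 to 3351 in the 6 labelled Tbx5 mutant.

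Genes of both subunits, and of both evolutionary classes, were among those that rose. The shares below can be read against the 16.3% of all genes that rose, or 14.8% with the length trend removed. Among the large-subunit proteins with a bacterial counterpart, 10 of 29 tested genes rose and none fell (median log2 fold change 0.31), and 6 rose with the length trend removed. Among the large-subunit proteins particular to mitochondria, 10 of 19 rose and none fell (median 0.38), and 3 rose with the trend removed, or 15.8%, near the share over all genes. In the small subunit, 7 of 17 genes with a bacterial counterpart rose and 1 fell (median 0.32), while 6 of 9 mitochondria-specific ones rose (median 0.41). With the trend removed, 5 rose and 1 fell in the former class and 4 rose in the latter. Differences between these classes were not tested. By symbol, 19 of 46 tested Mrpl rows and 14 of 28 tested Mrps rows rose, with a median of 0.33 in each. Replicate spread was similar in the groups, with a median coefficient of variation of 13.1% in the controls and 13.5% in the mutants. The deviations of pairs of genes from their group means had a median Pearson correlation of 0.39, a description over 10 libraries. It was not computed for other genes, so it is not shown to be particular to this group, and the part of the length trend in it was not tested.

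Upstream sequences were examined because housekeeping mitochondrial genes are known targets of ETS-family factors such as GABPA, of NRF1 and of YY1. RefSeq windows of GRCm38.p6 reaching from 250 bases before to 50 bases after the start site were matched for 67 of the 76 genes (73 windows), and Mrpl13, Mrpl15, Mrpl19, Mrpl38, Mrpl4, Mrpl54, Mrps28, Mrps34 and Mrps35 had no entry. For 5 of the 67, Mrpl33, Mrpl35, Mrpl36, Mrpl48 and Mrps24, a window is set on a start over 1000 bases downstream of the gene start in GENCODE M21. Each motif was searched on both strands, and a gene was counted where any of its windows held it. The ETS core CCGGAAG occurred in 24 genes, 35.8% of 67, compared with 9.93% of all 27025 genes with a window and 18.9% of the 9286 tested ones. The YY1 core AAGATGGC occurred in 12 genes (17.9%, against 3.19% of all and 4.99% of tested genes), and the NRF1 site (GCGCA, any base, then GCGC) likewise in 12 (17.9%, against 5.19% and 11.0%). The E-box CACGTG was found in 5 (7.46%, against 8.09% and 11.6%), and the T-box site AGGTGTGA in 0, against 1.48% and 1.02%, which says only that these letters were not in these windows. The windows of the mitoribosomal genes had a median GC content of 58.0%, against 52.8% for all windows. Of the genes with an ETS core, 7 of 24 tested rose (median log2 fold change 0.34), and of those without it 21 of 41 rose (median 0.33). The splits on the NRF1 site and on the YY1 core each gave 6 of 12 with a match and 22 of 53 without. For the E-box the counts were 3 of 5 and 25 of 60. Of all genes tested 16.3% rose, and differences between genes with and without a motif were not tested.

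The windows of 4 genes are printed for the genes whose values matter most below, with motif matches in capitals on either strand. Mrps23, which rose most, and Mrps6, which fell, are shown for contrast, and Mrps18c and Mrpl32 because each holds a pair of the motifs. The windows lie at chr11:88204138-88204437, + strand (ETS core), chr16:92058086-92058385, + strand (no match), chr5:100798509-100798808, + strand (E-box, then ETS core) and chr13:14612988-14613287, - strand (YY1 core, then NRF1 site), and each is written 5′ to 3′ in the direction of transcription.
Mrps23: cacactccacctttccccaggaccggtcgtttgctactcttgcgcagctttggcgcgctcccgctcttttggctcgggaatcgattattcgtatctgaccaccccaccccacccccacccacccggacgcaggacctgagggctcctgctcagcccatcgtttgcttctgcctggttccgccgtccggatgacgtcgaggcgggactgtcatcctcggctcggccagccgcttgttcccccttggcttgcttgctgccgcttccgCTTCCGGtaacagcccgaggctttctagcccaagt
Mrps6: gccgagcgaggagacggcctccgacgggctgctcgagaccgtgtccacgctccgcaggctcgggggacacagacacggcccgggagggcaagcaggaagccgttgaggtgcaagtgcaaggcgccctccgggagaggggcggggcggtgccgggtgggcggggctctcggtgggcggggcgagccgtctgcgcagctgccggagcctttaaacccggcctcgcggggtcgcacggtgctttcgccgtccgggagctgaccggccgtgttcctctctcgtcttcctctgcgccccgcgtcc
Mrps18c: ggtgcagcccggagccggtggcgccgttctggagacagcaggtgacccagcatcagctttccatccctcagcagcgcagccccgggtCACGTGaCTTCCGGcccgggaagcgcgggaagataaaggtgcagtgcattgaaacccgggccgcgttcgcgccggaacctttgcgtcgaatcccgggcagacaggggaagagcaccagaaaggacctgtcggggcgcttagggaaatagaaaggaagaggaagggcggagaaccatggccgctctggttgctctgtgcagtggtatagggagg
Mrpl32: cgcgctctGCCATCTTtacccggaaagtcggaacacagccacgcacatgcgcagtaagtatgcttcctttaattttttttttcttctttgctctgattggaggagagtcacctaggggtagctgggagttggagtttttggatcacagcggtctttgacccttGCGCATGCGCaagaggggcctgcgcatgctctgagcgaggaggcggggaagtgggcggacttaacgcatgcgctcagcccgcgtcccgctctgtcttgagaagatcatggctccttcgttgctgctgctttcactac

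Mrps23, a mitochondria-specific protein of the small subunit, showed the largest change. Its levels were 54.2, 61.2, 92.2 and 74.4 CPM in control M1, M2, F1 and F2, and 123 to 204 CPM with a median of 153 in the mutants. Every mutant lay above every control (log2 fold change 1.15 ± 0.16, adjusted p = 0.000181, edgeR), a 2.22-fold difference. With the length trend removed the log2 fold change was 0.96 (adjusted p = 0.000539). The gene lies at chr11:88204388-88211507 (GENCODE M21, mm10) and shares no 50-base stretch with another transcript.

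Mrps6, the counterpart of bacterial S6 in the small subunit, was the only gene of the group to fall. It was at 64.3, 50.1, 66.5 and 74.2 CPM in control M1, M2, F1 and F2, and at 17.0 to 40.1 CPM with a median of 30.2 in the mutants. The groups did not overlap (log2 fold change -1.04 ± 0.19, adjusted p = 0.00101, edgeR), and without the length trend the log2 fold change was -1.32 (adjusted p = 7.88e-05). Mrps6 spans chr16:92058270-92112227, a locus it shares on the same strand with Slc5a3, which encodes a sodium-coupled myo-inositol transporter. Their RefSeq start sites lie 14 bases apart, so the window printed for Mrps6 serves both. Slc5a3 moved in the same direction, from 243, 188, 307 and 306 CPM in control M1, M2, F1 and F2 to 76.6 to 105 CPM with a median of 85.7 in the mutants (log2 fold change -1.58 ± 0.13, adjusted p = 2.24e-06). Mrps6 also shares 32.2% of its 50-base stretches with Gm49711, a transcript model of the same locus. How reads in shared exons were assigned is not given in the sources used here, so the Mrps6 count is uncertain to that extent.

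The other small-subunit genes with the largest changes all rose. Mrps18c, 1 of 3 mammalian relatives of bacterial S18, was at 8.57, 11.6, 11.8 and 12.7 CPM in control M1, M2, F1 and F2 and at 14.0 to 21.6 CPM with a median of 17.1 in the mutants (log2 fold change 0.66 ± 0.15, adjusted p = 0.00513, edgeR). Mrps25, a mitochondria-specific protein, was at 24.9, 25.1, 30.4 and 30.2 CPM and at 35.5 to 48.5 CPM with a median of 42.0 (log2 fold change 0.59 ± 0.11, adjusted p = 0.00180). In both genes the groups were separate. Mrps22, another mitochondria-specific protein, was at 17.1, 18.9, 18.5 and 16.9 CPM in the same order of controls, within a narrow range, and at 21.1 to 32.0 CPM with a median of 26.0 in the mutants (log2 fold change 0.57 ± 0.11, adjusted p = 0.00224). Mrps17, the counterpart of bacterial S17, was at 35.1, 38.2, 39.2 and 41.7 CPM and at 50.0 to 73.2 CPM with a median of 54.5 (log2 fold change 0.57 ± 0.11, adjusted p = 0.00229). Neither gene's groups overlapped, and with the length trend removed all 4 genes remained past the threshold, Mrps18c at 0.38 (adjusted p = 0.0248), Mrps25 at 0.76 (adjusted p = 0.000763), Mrps22 at 0.36 (adjusted p = 0.0394) and Mrps17 at 0.69 (adjusted p = 0.00163). The lengths used for Mrps25 and Mrps17, 6073 and 5061 bases, are those of their longest coding transcripts, and their values were higher after the removal. Which of their transcripts were expressed was not examined.

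In the large subunit, Mrpl54, a mitochondria-specific protein, had the largest change. It was at 22.7, 24.3, 20.7 and 26.7 CPM in control M1, M2, F1 and F2 and at 33.0 to 52.5 CPM with a median of 35.5 in the mutants, with no overlap (log2 fold change 0.71 ± 0.14, adjusted p = 0.00190, edgeR). Mrpl38, a mitochondria-specific protein of the central protuberance, was at 19.6, 21, 26.0 and 23.7 CPM and at 25.0 to 40.5 CPM with a median of 39.0 (log2 fold change 0.67 ± 0.14, adjusted p = 0.00322). Here mutant M1 lay within the range of the controls. Mrpl36, the counterpart of bacterial L36, was at 12.9, 17.7, 15.2 and 22.1 CPM and at 22.2 to 29.4 CPM with a median of 26.1 (log2 fold change 0.60 ± 0.15, adjusted p = 0.00684), with the highest control just under the lowest mutant. Mrpl9 and Mrpl19, counterparts of bacterial L9 and L19, were at 26.0, 37.4, 33.7 and 33.7 CPM and at 20.3, 26.5, 22.3 and 22.3 CPM in the controls. In the mutants Mrpl9 was at 39.4 to 55.6 CPM with a median of 45.3 (log2 fold change 0.51 ± 0.13, adjusted p = 0.00788) and Mrpl19 at 28.3 to 34.7 CPM with a median of 31.3 (log2 fold change 0.46 ± 0.11, adjusted p = 0.00569). Mrpl32, whose precursor is known to be trimmed by the inner-membrane m-AAA protease before it joins the ribosome, was at 20.9, 23.0, 18.5 and 18.3 CPM in the controls and at 24.9 to 32.9 CPM with a median of 25.7 in the mutants (log2 fold change 0.46 ± 0.12, adjusted p = 0.00994). The groups of Mrpl9, Mrpl19 and Mrpl32 were separate. With the length trend removed all 6 genes stayed past the threshold, from 0.35 for Mrpl36 to 0.57 for Mrpl19.

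**Figure D4:**
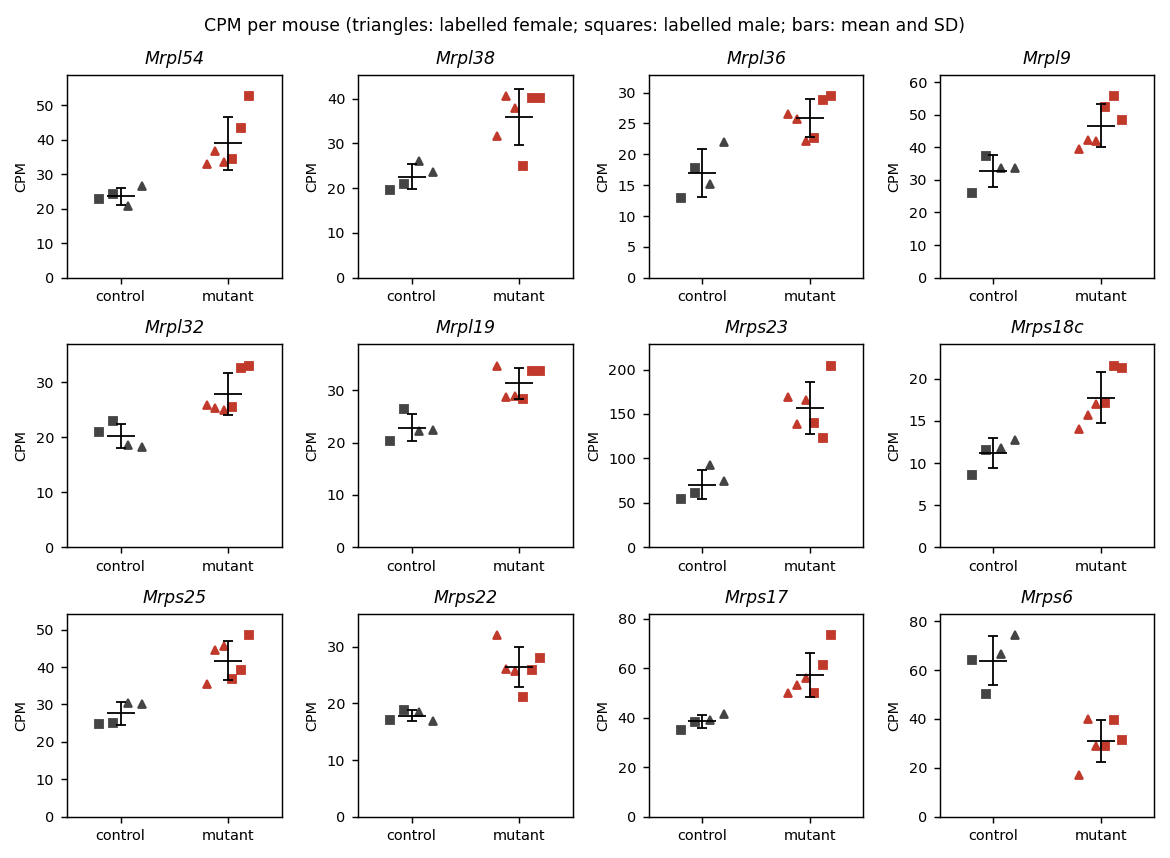
CPM in each mouse for the 6 Mrpl and 6 Mrps genes with the largest changes, with mean and SD, for mice labelled control (grey, n = 4) and mice labelled Tbx5 mutant (red, n = 6). All genes shown but Mrps6 are higher in the mutants, with the groups overlapping only for Mrpl38, and Mrps6 lower without overlap.

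Per transcript length, the most abundant of these messages were those of Mrpl42, Mrpl33 and Mrpl30, and none of them stood out in the comparison. Mrpl42, a mitochondria-specific protein, was at 150 ± 12.7 RPKM in the controls and 162 ± 21.6 RPKM in the mutants (CPM divided by the length in kilobases of the longest coding transcript), and its log2 fold change was 0.10 (adjusted p = 0.506, edgeR), or -0.21 (adjusted p = 0.110) with the length trend removed. Mrpl33, the counterpart of bacterial L33, was at 134 ± 21.6 RPKM in the controls and 169 ± 30.1 RPKM in the mutants (log2 fold change 0.34 ± 0.14, adjusted p = 0.0790), and its value was -0.01 with the trend removed. Mrpl30 was at 88.1 ± 10.9 RPKM in the controls and 110 ± 14.5 RPKM in the mutants (log2 fold change 0.32 ± 0.11, adjusted p = 0.0428), and 0.07 with the trend removed. The levels of Mrpl42 and Mrpl33 did not differ beyond their spread in the mutants. At the other end, Mrps5, the counterpart of bacterial S5, had the lowest mean of the 74 tested genes in the controls, though not in the mutants, where Mrpl48 was lower. Mrps5 was at 3.08 ± 0.331 RPKM in the controls and 3.91 ± 0.351 RPKM in the mutants, and it rose (log2 fold change 0.33 ± 0.11, adjusted p = 0.0353), to 0.42 (adjusted p = 0.0159) with the trend removed.

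The 2 genes that were not tested had almost no reads. Mrpl23, whose protein lies at the exit of the peptide tunnel, was at 0.165 to 0.470 CPM in the controls and 0.272 to 0.473 CPM in the mutants, and 66.7% of its 50-base stretches are shared with Mrpl23-ps1. Mrps36 was at 0.135 to 1.29 CPM and 0 to 1.36 CPM, and shares 36.2% of its stretches with 7 other genes, 24.1% with Mrps36-ps1 alone. Its product is now known as a subunit of the 2-oxoglutarate dehydrogenase complex and not of the ribosome. Since reads that match a pseudogene equally well may be lost or split, low counts of these genes say little about their transcripts. In all, 37 of 76 genes share at least one such stretch and 10 share over 20%, among them Mrpl53, whose stretches are all found in Gm42688.

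The 3 relatives of bacterial S18 give a comparison within one family. Mrps18a, whose product sits in the large subunit despite its name, was at 18.0, 22.5, 20.5 and 25.4 CPM in control M1, M2, F1 and F2 and at 25.9 to 31.5 CPM with a median of 29.8 in the mutants, without overlap (log2 fold change 0.42 ± 0.11, adjusted p = 0.0113, edgeR). Mrps18b was at 5, 4.63, 3.76 and 4.74 CPM and at 4.90 to 6.97 CPM with a median of 5.87 (log2 fold change 0.40 ± 0.17, adjusted p = 0.0807), and did not pass. Per length the order in the controls was Mrps18a (24.5 ± 3.56 RPKM), Mrps18c (13.6 ± 2.19) and Mrps18b (4.20 ± 0.497), each apart from the next by more than the SDs. With the length trend removed only Mrps18c passed, while Mrps18a was at 0.16 (adjusted p = 0.217) and Mrps18b at 0.17 (adjusted p = 0.480). Mrps18b shares 30.9% of its 50-base stretches with Gm13552.

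Exons of 32 of the 76 genes overlap those of another gene, 27 on the opposite strand and 8 on the same strand, and the strand setting of the counts is not given in the sources used here. Neighbours that passed the test moved either way. Ndufs6, a complex I subunit beside Mrpl36, rose with it (log2 fold change 0.55 and 0.60), although with the length trend removed Ndufs6 was at 0.24 (adjusted p = 0.0791) and did not pass. Other neighbours fell beside genes of the group with values above 0, among them Peo1, the mitochondrial DNA helicase, at -0.41 beside Mrpl43 at 0.40 (adjusted p = 0.0551, not past the threshold, edgeR), Nr2c2 at -0.37 beside Mrps25 at 0.59, and Mif4gd at -0.32 beside Mrps7 at 0.41. Mrpl47 had 0.13 and did not pass (adjusted p = 0.482, edgeR), while Ndufb5 and Actl6a, which overlap it, rose by 0.47 and 0.51 on the log2 scale. With the length trend removed Nr2c2, at -0.15 (adjusted p = 0.194), and Ndufb5, at 0.23 (adjusted p = 0.0676), did not pass either, while Peo1, Mif4gd and Actl6a did.

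No gene of the group showed a detectable interaction of genotype and sex, with the sexes as labelled or with the control labels exchanged. In the fit as labelled, 0 of 74 genes passed an adjusted p of 0.05 (edgeR), against 0.281% of all genes. There 7 had an unadjusted p under 0.05, as did 1397 of all 13542 genes, and limma likewise called 0. The lowest adjusted p was 0.166, for Mrpl55. By Xist and Ddx3y counts the sex labels of the controls are reversed. If so, the fit as labelled does not compare the response to the genotype between the sexes. With the sex labels of the control mice exchanged, the count was again 0, against 0.00738% of all genes. In that fit 5 had an unadjusted p under 0.05, as did 1221 of the 13542. This does not show that the sexes respond alike, since 2 mice made up each control sex.

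Other genes of mitochondrial translation were taken from lists by function, and differences between lists were not tested. The shares over all genes are again 16.3% higher and 15.0% lower. Of 8 genes for mitoribosomal proteins or ribosome-bound proteins with other symbols, 3 rose and none fell (median log2 fold change 0.26), including Gadd45gip1 (19.9 ± 3.66 CPM in the controls and 28.6 ± 4.28 CPM in the mutants, log2 fold change 0.52 ± 0.14, adjusted p = 0.0142, edgeR) and Oxa1l, the insertase that receives new membrane proteins (0.49). With the length trend removed 2 of the 8 rose and 1 fell, with a median of 0.17. Of 21 genes for assembly and ribosomal RNA modification, 2 rose and 2 fell, 9.52% each way and fewer than over all genes, and with the length trend removed 1 rose and 2 fell. Rnmtl1 and Mrm1, both methyltransferases of the large ribosomal RNA, went in opposite directions, the former with 9.89 ± 0.656 CPM in the controls and 17.7 ± 1.40 CPM in the mutants (log2 fold change 0.84 ± 0.11, adjusted p = 8.92e-05) and the latter with 33.0 ± 3.70 CPM in the controls and 19.1 ± 3.25 CPM in the mutants (log2 fold change -0.80 ± 0.13, adjusted p = 0.000494). Mterfd1 rose by 0.27 and Mterfd2 fell by 0.37 on the log2 scale, but Mterfd1 did not pass with the length trend removed, at 0.10 (adjusted p = 0.472). Among 13 translation factors 3 rose and none fell, with Tsfm, an elongation factor, at 0.55 and Tufm, its partner, at 0.47. With the trend removed 2 rose, and Tufm did not pass, at 0.32 (adjusted p = 0.117). Of 19 mitochondrial aminoacyl-tRNA synthetases 1 rose, Aars2 (0.40, adjusted p = 0.0250, edgeR), which is 5.26%, and none fell. With the trend removed 2 rose and 2 fell. The highest log2 fold change in this list was 3.83, in a gene that did not pass, and 3.91 with the trend removed.

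Of 15 regulators of mitochondrial gene expression tested, 2 rose (13.3%) and 3 fell, near the shares over all genes, and the counts were the same with the length trend removed. Ppargc1a, a coactivator that promotes mitochondrial biogenesis, fell (159 ± 19.6 CPM in the controls and 92.0 ± 18.0 CPM in the mutants, log2 fold change -0.79 ± 0.14, adjusted p = 0.00103, edgeR), as did Peo1 (-0.41). Ppargc1b, its relative, rose (0.48, adjusted p = 0.0220), and Myc rose from a low level (1.45 ± 0.533 CPM in the controls and 5.58 ± 1.31 CPM in the mutants, log2 fold change 1.93 ± 0.27, adjusted p = 0.000175). The nuclear subunits of the respiratory chain and the ATP synthase moved in the same direction as the ribosomal proteins, including Cox6c (0.85) and Ndufb6 (0.68). Of these, 44 of 74 were higher (59.5%, against 16.3% of all genes) and none lower, with a median of 0.41. Cytosolic ribosomal proteins did so too, with 26 of 64 higher (40.6%), none lower and a median of 0.34, led by Rps2 (1.33) and Rpsa (0.64). Rps2 was at 4.14 CPM (29 counts) in control M1 and at 26.5 to 35.3 CPM in the other controls. Rpsa, at 7.14 ± 1.03 CPM in the controls, did not pass with the length trend removed (adjusted p = 0.0562, edgeR). The respiratory chain and cytosolic ribosomal lists also hold short transcripts, with medians of 913 and 993 bases. With the length trend removed 19 and 5 rose and 2 and 1 fell, with medians of 0.17 and 0.12. The shares higher were then 25.7% and 7.81%, against 14.8% of all genes, so the cytosolic list fell below that share. The 15 genes of the mitochondrial genome searched for were not in the table analysed here, so the products of this ribosome could not be compared with its proteins.

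**Figure D5:**
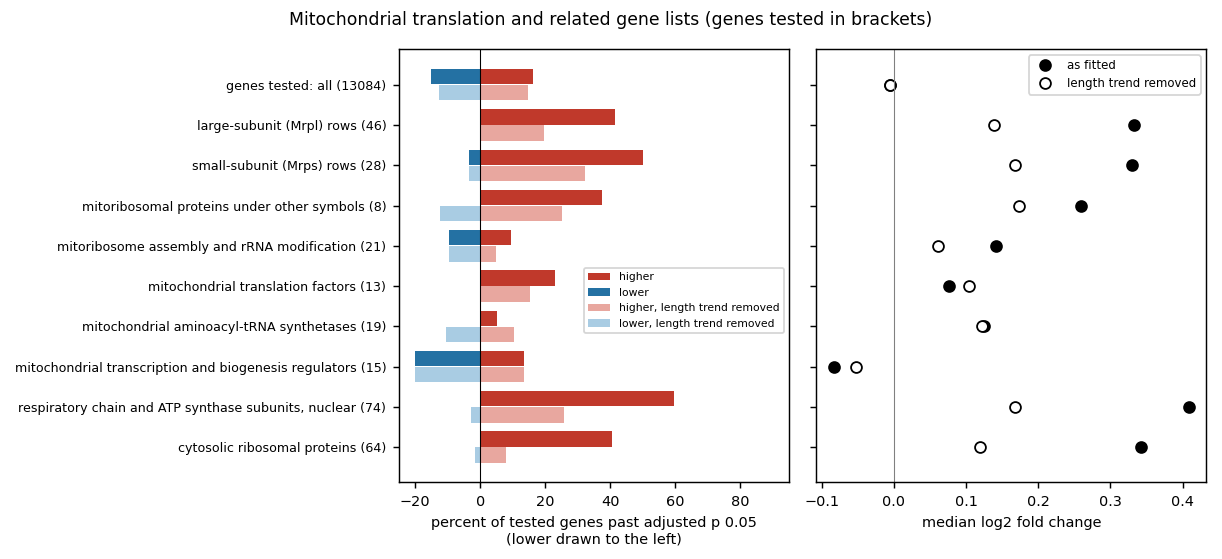
Left, the percent of tested genes higher (drawn to the right) or lower (to the left) in mice labelled Tbx5 mutant at an adjusted p under 0.05, for all genes, the Mrpl and Mrps rows and the related lists, with the number tested in brackets. Right, the median log2 fold change, filled as fitted and open with the length trend removed, which moves from 0.41 to 0.17 for the respiratory chain subunits and from 0.34 to 0.12 for the cytosolic ribosomal proteins.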

How the data were processed

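Right atrial RNA from 4 mice labelled control and 6 labelled Tbx5 mutant was sequenced by the authors, whose submitted processing notes name FastQC, TopHat2 2.0.11, featureCounts, DESeq2 and the build mm10. The annotation and strand setting are not given in the sources used here, and the labels describe both an mRNA kit after globin removal and ribosomal RNA removal. The authors deposited 1 table with raw counts per gene and library, a signal that is the count divided by a size factor, and its mean. Its further deposited columns hold the authors' own DESeq2 comparison (log2 fold change with its error, a Wald score, p-value, adjusted p-value and fold ratio) and were not used.

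Counts were fitted with edgeR 4.0.16 in R 4.3.3 (expression filter, TMM, quasi-likelihood test, no covariates), with p-values adjusted over 13084 genes. Standard errors were derived by dividing the absolute fold change (log2) by the root of the F statistic. The members and lists were chosen with earlier results of these data known. Transcript lengths came from the longest coding transcript in GENCODE M21, found for 22872 of 23337 genes. The length trend of each library was fitted by lowess (span 0.4) and entered as an offset. limma 3.58.1 and DESeq2 1.42.0 served as alternatives, and the fit was tested on simulated data. There it recovered 5 of 100 genes changed 1.25-fold and 96 of 100 changed 2-fold, with 5 other calls among 12946 genes. Far fewer genes changed in the simulation than were called in the mice, so these shares need not hold for the data. Named were the 6 Mrpl and 6 Mrps genes with the largest change among those past the threshold, those moving against the majority, the 3 highest and 3 lowest levels per length, the Mrps18 relatives, genes with a deviating mouse, Tbx5, and up to 2 genes per direction from each other list. Neighbouring genes and Mrpl53 were chosen after their values were seen. Total counts were 5703775 to 7095141 per library. A floor of 3 counts is 4.23e-05 to 5.26e-05% of a library, and covers counting error only. The labels name separate mice, and nothing else on how replicates were made. Within a group, every pair of libraries differed by more than sampling noise (lowest chi-square per degree of freedom 3.94 over 21 pairs).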

Additional observations from a re-analysis of the deposited data

Results flagged for a closer look

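Among 156 groups of values, 1 per gene and group for the 76 genes and for their summed level and median deviation, 6 had a mouse far from the others by Dixon's criterion, where chance gives about 7.8. In mutant M3, the library with the most Rn45s, Mrpl1 was at 49.0 CPM (180 counts), with the next mouse at 38.1, and Mrpl37, a mitochondria-specific large-subunit protein, was at 41.4 CPM (152 counts), with the next at 34.0. In control M1, Mrpl18 was lowest at 53.0 CPM (371 counts) against 65.4 in the nearest mouse, and Mrpl51 was lowest at 39.3 CPM (275 counts) against 50.0. Mrpl3, which binds the ribosomal RNA near the peptidyl transferase centre, was highest in mutant F2 at 63.7 CPM (478 counts), with the next at 54.2. Mrps21 was highest in control F2 at 31.0 CPM (229 counts), with the next at 25.7. Of these genes only Mrpl51 passed the comparison of the groups (log2 fold change 0.35 ± 0.13, adjusted p = 0.0494, edgeR), a call that was lost in 16 of 27 alternatives, and Mrpl18, whose groups did not overlap, had an adjusted p of 0.0558.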

How the results depend on the processing

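With the length trend removed, 19 genes of the group passed (18 higher), 4 of them also past the fold of 1.5 (3 higher), and the median log2 fold change was 0.15, with 17 of 74 values below 0 against 2 before. At an adjusted p under 0.01, 13 passed (12 higher). In the mice labelled male alone 16 passed (15 higher), 15 with the fold (14 higher). In those labelled female alone 9 passed (8 higher), 3 with the fold (2 higher), with a median of 0.17. Of all genes, 804 of 13112 were higher in the mice labelled male and 1425 of 13292 in those labelled female. The count of the group in the mice labelled female was thus near the share over all genes. By Xist and Ddx3y counts, the controls in each of these fits were of the other sex than the mutants. Genotype and sex therefore cannot be told apart in either fit. The replicate numbers gave no sign of pairing the mice. Same-numbered control and mutant mice had a mean correlation of deviations of -0.01 over 4 pairs, and the 20 other pairs ranged from -0.29 to 0.28. Of the control mice, 0 correlated best with their own number. So few pairs cannot exclude a pairing. The fit with a replicate block, on 8 mice, gave 20 (19 higher). The block with the length trend removed gave 10 (9 higher), 3 with the fold (2 higher) and a median of 0.15. These fits called 1776 and 1564 of all 13491 genes higher, and the second count of the group was near that share. The same 8 mice without the block were fitted after seeing the data, as were the length-removed fits without 1 library. Once the trend was removed they gave 13 (12 higher), 4 with the fold (3 higher) and a median of 0.17. Of all 12962 genes in the fit of these 8 mice, 1576 were higher.

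Leaving out each library in turn, with or without the length trend, gave 9 to 38 genes past the threshold, 8 to 37 higher and 1 to 2 lower, 4 to 9 with the fold (3 to 8 higher, 1 lower) and a median of 0.13 to 0.40. The lowest counts were without control M1, 18 higher, or 8 higher with the trend removed. Of all 13184 genes, 1786 and 1667 were higher in these fits, so with the trend removed the group was below that share. Without control F1, 10 were higher with the trend removed, against 1544 of all 13227 genes. Of the genes named, 4 changed sign, none of which passed the threshold in the report: with the length trend removed Mrpl33 was at -0.00602, Mrpl42 at -0.21 and Mrps21 at -0.0665, with the block as well Mrpl42 was at -0.24 and Mrps21 at -0.0348, and in mice labelled female Mrpl42 was at -0.0532 and Mrpl1 at -0.15. The cause of these shifts was not tested. Mrps23, Mrps6 and Mrpl54 kept direction and threshold in all 27 alternatives run for each. In the other scalings, filters and tools the count of higher genes was 29 to 43. The count for the interaction with sex stayed at 0 in every fit run for it. Mrps18b, at 18 to 50 counts a library, had too few reads for the fit limited to a mean count of 50.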
